A study of Homo sapiens with 12 samples.

Results

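The 9 genes described here encode cell-surface growth factor receptors and the docking proteins that carry the signal of some of them inward. They are ERBB2, ERBB3, MET, FGFR1, EPHA2, INSR and IGF1R, all receptor tyrosine kinases by family, and the insulin receptor substrates IRS1 and IRS2. They were taken by symbol from the gene count tables, where all 9 of 9 were found among 58735 symbols, and all 9 passed the filter on low counts. The cells were MDA-MB-468, an established human triple-negative breast cancer line with amplified EGFR, labelled wild type in all groups. RNA-seq libraries came from 4 groups of 3, lettered A to C: DMSO vehicle, docetaxel at 10 nM for 8 h, docetaxel at 10 nM for 24 h, and a combination (labelled Combo) of tazemetostat and ipatasertib, 5 µM each. Docetaxel is a microtubule-stabilising drug, tazemetostat inhibits the histone methyltransferase EZH2, and ipatasertib inhibits the kinase AKT. The docetaxel cells grew on 10 cm plates. The combination arm had been held in tazemetostat for 5 days, was moved to 6 cm plates, and received both inhibitors for 24 h in medium with 2% serum. The labels do not give the plate, serum or hours of the DMSO libraries, and tazemetostat or ipatasertib alone was not analysed here. A difference between the combination and DMSO therefore cannot be told apart from a difference in culture conditions or assigned to 1 of the 2 inhibitors.

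Receptor tyrosine kinases bind a ligand outside the cell, pair, and phosphorylate tyrosines on themselves and on adaptors, which recruit phosphatidylinositol 3-kinase (PI3K) and so activate AKT. AKT keeps the FOXO transcription factors out of the nucleus. In epithelial tumours, inhibition of PI3K or AKT is known to release FOXO factors and raise transcripts of several receptors, among them ERBB3, INSR and IGF1R, and of IRS2. The comparison of the combination with DMSO shows how these 9 transcripts stood under AKT and EZH2 inhibition, and the docetaxel groups show the same transcripts under a cytotoxic drug.

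The 2 insulin receptor substrates moved furthest in the combination, in opposite directions, so the 250 bases before their annotated starts are shown. They were read 5′ to 3′ on the gene's own strand from the RefSeq promoter table of build GRCh38.p14, which held 7 of the 9 genes. The IRS2 stretch is chr13:109786584-109786833, minus strand, and the IRS1 stretch is chr2:226799821-226800070, minus strand. Capitals mark a match to either of 2 cores that forkhead factors can bind, GTAAACA, which reads TGTTTAC on the other strand, and CAAAACA, which reads TGTTTTG there.
IRS2: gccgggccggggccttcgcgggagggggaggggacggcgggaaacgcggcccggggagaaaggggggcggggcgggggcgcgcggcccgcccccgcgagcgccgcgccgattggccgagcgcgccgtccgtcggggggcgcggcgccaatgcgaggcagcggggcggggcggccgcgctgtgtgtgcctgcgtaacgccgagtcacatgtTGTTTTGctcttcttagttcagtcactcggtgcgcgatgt
IRS1: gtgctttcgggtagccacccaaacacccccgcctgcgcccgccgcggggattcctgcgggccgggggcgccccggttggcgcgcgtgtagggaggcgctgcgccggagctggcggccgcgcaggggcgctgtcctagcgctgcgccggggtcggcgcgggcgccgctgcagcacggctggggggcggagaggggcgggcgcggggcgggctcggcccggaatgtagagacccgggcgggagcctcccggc
IRS2 held 1 match to CAAAACA, as TGTTTTG on the printed strand, with its first base 40 bases before the start. None of the 7 members in the table held GTAAACA in this window, and IRS2 was the only one of them with CAAAACA. The windows end at RefSeq starts, which lay 0 bases from the GENCODE gene starts given below for IGF1R, 15 for IRS2 and 18 for EPHA2. That distance was 61 for IRS1, 180 for ERBB2, 194 for MET and 380 for INSR. Most of the ERBB2 window lies inside the gene as placed below. Among 35116 promoters of the same length, 2.98% held GTAAACA and 4.30% held CAAAACA on either strand. G and C made up 76.4% of the IRS2 stretch and 80.8% of the IRS1 stretch. A match of letters is a description of the sequence, not a bound site.

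Levels are given as CPM, gene counts scaled to the library's total after normalisation by trimmed mean of M-values (TMM), with 29820617 to 45807059 counts per library. Tests are edgeR's quasi-likelihood test over 17780 genes with Benjamini-Hochberg adjustment and a threshold of 0.05, and SE is the standard error of a log2 fold change. Changes were widespread: 47.3% of all genes passed at docetaxel 8 h, 42.9% at 24 h and 62.8% in the combination, each against DMSO. The labels do not say that the lettered libraries were separate cultures, so the p-values measure the spread between libraries, which may be technical. Markers of the labelled cell type were present. In DMSO the basal keratin KRT5 averaged 1624 CPM and the epithelial gene EPCAM 332 CPM. The other keratins listed were uneven there, with KRT8 at 3319, KRT18 at 920, KRT17 at 565, KRT14 at 185 and KRT6A at 4.96 CPM. The oestrogen receptor gene ESR1 averaged 1.86 CPM in DMSO. Summed fibroblast markers, mostly COL1A1, lay between 13.3 and 25.1 CPM over the 12 libraries. Among them LUM and DCN were at 0 in DMSO and in both docetaxel groups, and averaged 4.17 and 0.299 CPM in the combination. The immune markers CD3E and CD68 were at 0 in DMSO. Mitochondrially encoded transcripts took 4.21% ± 0.244 (SD, n = 3) of counts in DMSO, 8.55% ± 0.409 at docetaxel 8 h, 6.38% ± 1.28 at 24 h and 8.49% ± 0.799 in the combination, and their part in the results below was not tested.

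In GENCODE release 29 on GRCh38 the receptor genes lie at 17:39687914-39730426 (ERBB2, plus strand), 12:56076799-56103505 (ERBB3, plus), 7:116672390-116798386 (MET, plus), 8:38400215-38468834 (FGFR1, minus), 1:16124337-16156087 (EPHA2, minus), 19:7112255-7294034 (INSR, minus) and 15:98648539-98964530 (IGF1R, plus). IRS1 lies at 2:226731317-226799759 and IRS2 at 13:109752698-109786568, both on the minus strand. Counts are per gene, and isoforms were not separated.

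To compare genes with each other in DMSO, CPM was divided by the summed exon length in kilobases. That length merges the exons of all annotated isoforms, such as 10321 bases for ERBB2 and 4159 for EPHA2. It can exceed the length of the transcripts expressed, and the order below depends on it. On that scale MET, the hepatocyte growth factor receptor, was the highest of the 9 at 32.8 ± 1.95 (SD, n = 3) CPM per kb. EPHA2, a receptor for membrane-bound ephrins, stood at 23.1 ± 0.617 CPM per kb and IRS2 at 11.2 ± 0.822 CPM per kb. ERBB2, the ligandless partner of the epidermal growth factor receptor family, followed at 9.76 ± 0.0944 CPM per kb. IRS1, at 7.59 ± 0.336 CPM per kb, and ERBB3, at 7.42 ± 0.211 CPM per kb, overlapped in their libraries and did not differ beyond their spread. FGFR1, a fibroblast growth factor receptor, stood at 4.21 ± 0.125, IGF1R at 3.05 ± 0.143 and INSR at 2.70 ± 0.124 CPM per kb. For all other neighbours in this order the DMSO libraries did not overlap. EGFR, the amplified family member of ERBB2 and ERBB3, stood at 306 CPM per kb, above all 9.

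**Figure D1:**
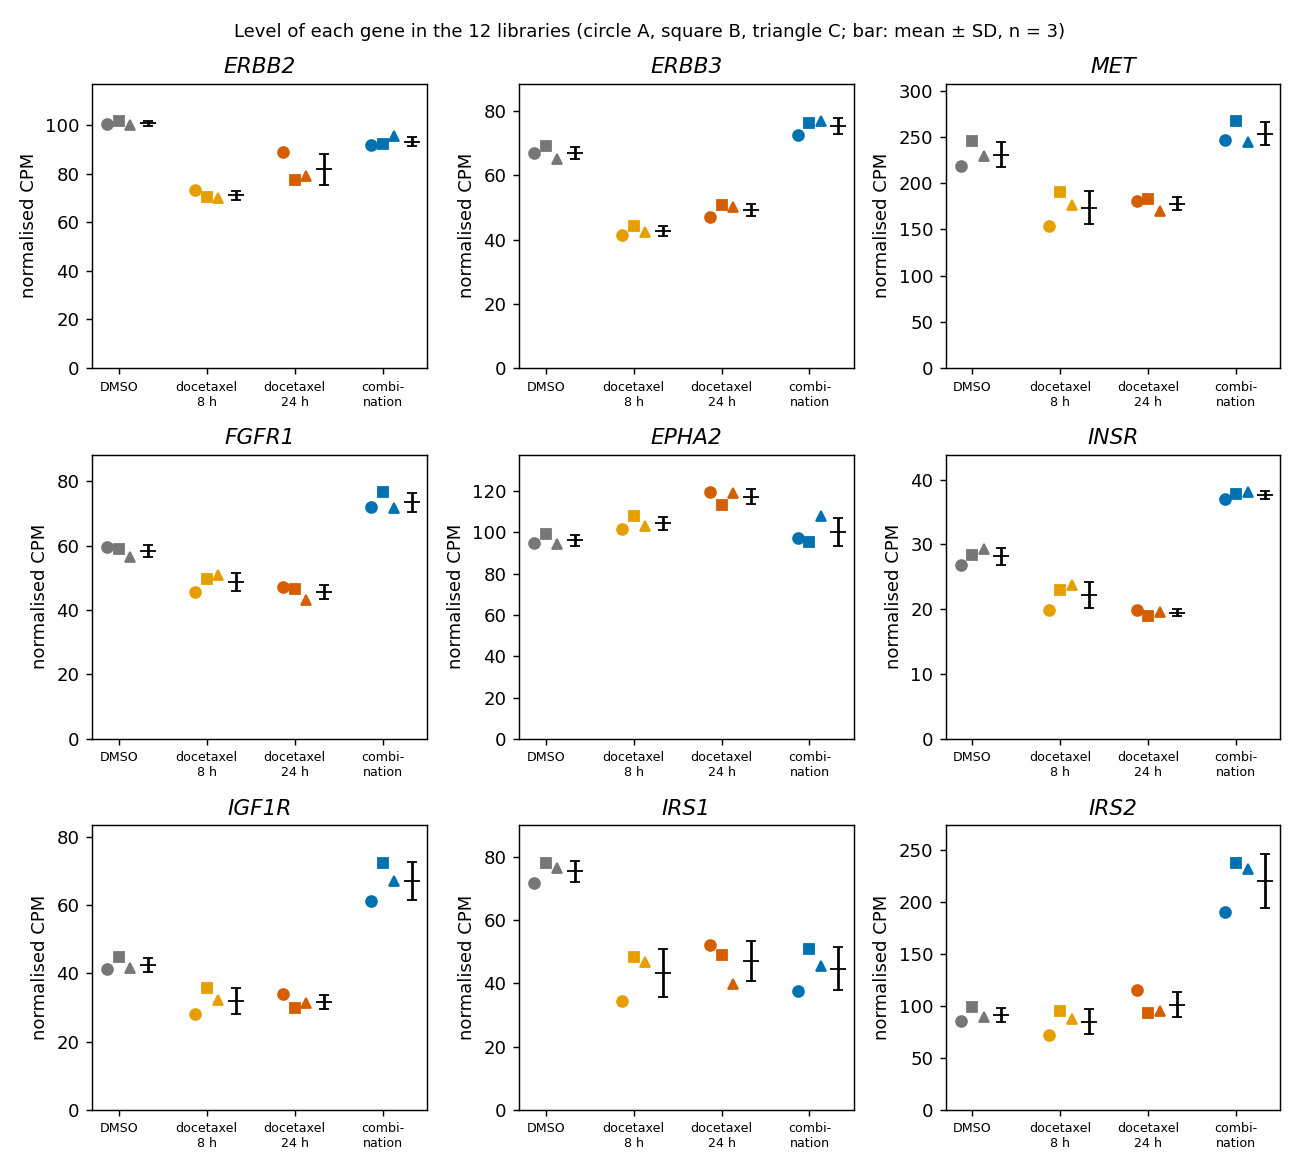
Normalised CPM (vertical axes, each from 0) of the 9 genes in the 4 treatment groups, with 1 symbol per library and bars for the mean ± SD of 3. IRS2 in the combination lay between 190 and 238 CPM, above all other libraries, whereas IRS1 lay below its DMSO libraries in all 3 treatments.

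In the combination, 5 of the 9 genes rose against DMSO (IRS2, IGF1R, INSR, FGFR1 and ERBB3), 1 fell (IRS1) and 3 did not pass (ERBB2, MET and EPHA2). Over all genes tested, 31.4% rose and 31.4% fell in this comparison, so a call alone is common here. The median log2 fold change of the 9 was 0.17, beside 0.01 over all genes.

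IRS2, which docks PI3K to the insulin and IGF1 receptors, had the largest change of the 9. Its DMSO libraries A, B and C read 85.4, 98.5 and 89.6 CPM, and its combination libraries 190, 238 and 231 CPM. Every combination library was above every library of the other 3 groups. The log2 fold change was 1.27 (SE 0.09, adjusted p = 4.36e-11 by edgeR), a 2.41-fold rise. At docetaxel 8 h IRS2 read 72.1, 95.5 and 86.9 CPM, and at 24 h 115, 92.8 and 95.4 CPM, both overlapping DMSO. Neither docetaxel comparison passed, with a log2 fold change of -0.10 (SE 0.09) at 8 h and 0.15 (SE 0.09) at 24 h. With scaling by library totals in place of TMM, the 8 h value was -0.26 and passed (adjusted p = 0.0401).

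IRS1, the other docking protein of these receptors, fell in all 3 treatments. It read 71.8, 78.2 and 76.6 CPM in DMSO, and 37.5, 51.0 and 45.4 CPM in the combination. The docetaxel libraries read 34.6, 48.5 and 46.8 CPM at 8 h and 52.1, 48.9 and 39.9 CPM at 24 h. All 9 treated libraries lay below all 3 DMSO libraries, and the 3 treated groups overlapped each other. IRS1 fell by 0.76 on the log2 scale in the combination (SE 0.11, adjusted p = 1.77e-06), by 0.80 at docetaxel 8 h (SE 0.11, adjusted p = 1.89e-06) and by 0.69 at 24 h (SE 0.11, adjusted p = 1.77e-05). No pair of treatments differed for IRS1 by the same test, and the combination against docetaxel 24 h gave a log2 fold change of -0.07 (SE 0.11, adjusted p = 0.591).

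The ratio of IRS2 to IRS1 counts within a library, not corrected for length, removes the scaling between libraries. It was 1.21 ± 0.0470 (SD, n = 3) in DMSO, 1.97 ± 0.114 at docetaxel 8 h, 2.17 ± 0.249 at 24 h and 4.95 ± 0.245 in the combination. The 3 combination libraries lay between 4.67 and 5.10, and no other library exceeded 2.39. No test was made on ratios, since they are built from the values tested above.

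INSR and IGF1R, the receptors for insulin and for insulin-like growth factor 1, rose in the combination and fell under docetaxel. IGF1R read 41.2, 44.8 and 41.4 CPM in DMSO and 61.3, 72.4 and 67.0 CPM in the combination. Its docetaxel libraries read 28.0, 35.5 and 32.1 CPM at 8 h and 33.8, 29.8 and 31.3 CPM at 24 h. The DMSO libraries stood between the 2 treatments without overlap on either side. IGF1R rose by 0.66 on the log2 scale in the combination (SE 0.07, adjusted p = 6.05e-08), and fell by 0.41 (SE 0.08) at docetaxel 8 h and by 0.43 (SE 0.08) at 24 h.

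INSR read 26.8, 28.4 and 29.3 CPM in DMSO and 37.0, 37.8 and 38.2 CPM in the combination. Under docetaxel it read 19.9, 23.0 and 23.8 CPM at 8 h and 19.96, 18.9 and 19.6 CPM at 24 h. The combination libraries were the highest and the docetaxel libraries the lowest, with no overlap with DMSO. INSR rose by 0.42 in the combination (SE 0.06, adjusted p = 5.78e-06), and fell by 0.34 (SE 0.07) at 8 h and by 0.53 (SE 0.07) at 24 h. The IGF1R to INSR count ratio was 1.51 ± 0.0862 (SD, n = 3) in DMSO and 1.78 ± 0.131 in the combination.

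ERBB3 is a receptor with a weak kinase that binds neuregulins and recruits PI3K. It read 66.9, 69.1 and 65.2 CPM in DMSO and 72.6, 76.4 and 77.0 CPM in the combination. It read 41.4, 44.3 and 42.3 CPM at docetaxel 8 h and 47.2, 50.6 and 50.2 CPM at 24 h. The 4 groups did not overlap at any point. ERBB3 fell by 0.65 at 8 h (SE 0.05, adjusted p = 1.17e-09) and by 0.44 at 24 h (SE 0.05, adjusted p = 4.93e-07). Its rise in the combination was small, at 0.17 (SE 0.05, adjusted p = 0.00602), and it did not pass without the filter on low counts (0.13, adjusted p = 0.0836).

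ERBB2, the preferred partner of ERBB3, read 100, 102 and 99.9 CPM in DMSO and 91.9, 92.3 and 95.3 CPM in the combination. Under docetaxel it read 73.2, 70.2 and 69.9 CPM at 8 h and 89.1, 77.4 and 78.9 CPM at 24 h. All 9 treated libraries lay below DMSO, and those of docetaxel 8 h were the lowest. ERBB2 fell by 0.50 at 8 h (SE 0.05, adjusted p = 6.19e-08) and by 0.30 at 24 h (SE 0.05, adjusted p = 6.83e-05). In the combination the log2 fold change of -0.11 (SE 0.05, adjusted p = 0.0651) did not pass, but 6 of 18 alternatives put it past the threshold in the same direction: library totals, no filter, only the 2 groups compared, and leaving out docetaxel 8 h library A (-0.12, adjusted p = 0.0427), 24 h library A (-0.12, adjusted p = 0.0265) or 24 h library B (-0.12, adjusted p = 0.0499). The ERBB3 to ERBB2 count ratio was 0.666 ± 0.0127 (SD, n = 3) in DMSO and 0.809 ± 0.0188 in the combination, with no overlap. The exons of ERBB2 share 571 bases with MIEN1 and 194 with PGAP3 on the opposite strand, and the strand setting of the counting is not given in the sources used here.

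MET read 218, 246 and 229 CPM in DMSO, 154, 190 and 177 CPM at docetaxel 8 h, and 180, 183 and 170 CPM at 24 h. All docetaxel libraries lay below DMSO. In the combination it read 247, 268 and 245 CPM, which overlapped DMSO. MET fell by 0.41 at 8 h (SE 0.06, adjusted p = 1.26e-05) and by 0.38 at 24 h (SE 0.06, adjusted p = 5.00e-05). The combination value of 0.13 (SE 0.06, adjusted p = 0.0687) did not pass. It passed with the same sign under 5 alternatives: only the 2 groups compared (0.14, adjusted p = 0.0224), the replicate letter as a block (0.13, adjusted p = 0.0261), and leaving out DMSO library B (0.18, adjusted p = 0.0285), docetaxel 8 h library A (0.13, adjusted p = 0.0310) or 24 h library C (0.15, adjusted p = 0.0493).

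FGFR1 read 59.6, 59.0 and 56.4 CPM in DMSO and 71.99, 76.7 and 71.5 CPM in the combination. Under docetaxel it read 45.6, 49.5 and 51.0 CPM at 8 h and 47.3, 46.6 and 43.1 CPM at 24 h. DMSO lay between the combination and docetaxel without overlap. FGFR1 rose by 0.33 in the combination (SE 0.06, adjusted p = 1.58e-05), and fell by 0.26 (SE 0.06) at 8 h and by 0.36 (SE 0.06) at 24 h. Its exons share 138 bases with LETM2 on the opposite strand, a gene with at most 185 counts in a library.

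EPHA2 rose under docetaxel at 24 h, as no other of the 9 did. It read 94.7, 99.0 and 94.4 CPM in DMSO, 102, 108 and 103 CPM at docetaxel 8 h, and 120, 113 and 119 CPM at 24 h. The 3 groups did not overlap. The 24 h value was 0.29 (SE 0.05, adjusted p = 0.000102), while the 8 h value of 0.12 (SE 0.05, adjusted p = 0.0657) missed the threshold. The 8 h value passed without DMSO library B (0.16, adjusted p = 0.0336). It also passed with DESeq2 size factors (adjusted p = 0.0487), DESeq2 (adjusted p = 0.0402) and only the 2 groups compared (adjusted p = 0.0266), each at 0.13. With library totals its sign was reversed (-0.036, adjusted p = 0.616). In the combination EPHA2 read 97.3, 95.4 and 108 CPM, overlapping DMSO, with a log2 fold change of 0.06 (SE 0.05, adjusted p = 0.312).

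**Figure D2:**
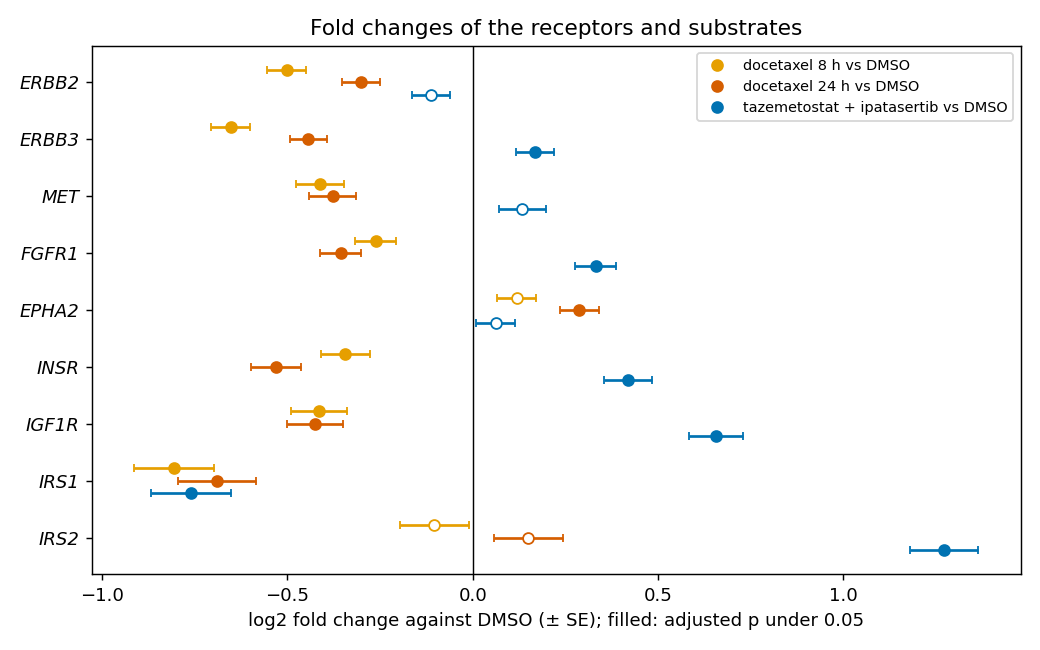
Log2 fold change against DMSO (horizontal axis, ± SE) of each gene in the 3 treatments, each on 3 libraries against 3, with filled symbols for an adjusted p under 0.05. The docetaxel symbols of 7 genes lie left of 0, and IRS2 in the combination lies farthest right at 1.27.

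Most of the 9 genes fell under docetaxel. ERBB2, ERBB3, INSR, IGF1R, IRS1, MET and FGFR1, 7 of 9, fell at both times, while 0 rose at 8 h and EPHA2 rose at 24 h. Of all genes, 24.8% fell and 22.5% rose at 8 h, and 22.7% fell and 20.2% rose at 24 h. The median of the 9 was -0.41 at 8 h and -0.38 at 24 h, beside -0.02 and 0.01 over all genes. The counts of genes at 8 h depended on scaling: TMM gave 3994 genes higher and 4415 lower, while library totals gave 2288 higher and 6782 lower and shifted the median log2 fold change of all genes by -0.155. Under library totals 8 of the 9 members were lower at 8 h, IRS2 being the added one.

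Under docetaxel, genes with a long summed exon length fell more often than genes in general. This length is merged over annotated isoforms and need not equal that of the transcripts expressed. Of the 9 members, 8 have a summed exon length of 5000 bases or more, the exception being EPHA2 with 4159. Among 6995 tested protein-coding genes of at least 5000 bases, 40.1% fell and 16.1% rose at docetaxel 8 h, and 38.1% fell and 13.3% rose at 24 h. Their median log2 fold change was -0.13 at 8 h and -0.11 at 24 h. In the combination 43.1% of these long genes fell and 29.5% rose, with a median of -0.09. The part of summed exon length, or of transcript length, in the members' falls was not tested.

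Between the docetaxel times, 4 of the 9 were higher at 24 h than at 8 h (ERBB2, ERBB3, IRS2 and EPHA2), 1 was lower (INSR) and 4 did not pass. Over all genes 34.9% passed, 16.6% higher and 18.3% lower, as 2947 and 3261 genes, which became 5387 and 1659 with library totals. ERBB2 was 0.20 higher on the log2 scale (SE 0.05, adjusted p = 0.00473) and ERBB3 0.21 higher (SE 0.05, adjusted p = 0.00322), both still below DMSO. EPHA2 was 0.17 higher (SE 0.05, adjusted p = 0.0136). IRS2 was 0.25 higher (SE 0.09, adjusted p = 0.0375) with overlapping libraries, and the call was lost without docetaxel 8 h library A (0.15, adjusted p = 0.210) or without 24 h library A (0.15, adjusted p = 0.248). INSR fell by 0.19 from 8 h to 24 h (SE 0.07, adjusted p = 0.0374), also with overlapping libraries, and read -0.06 (adjusted p = 0.564) with library totals. The docetaxel 8 h library A was the lowest of its group for 8 of the 9 genes.

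Set against docetaxel at the same 24 h, the combination had 7 of the 9 genes higher, EPHA2 lower and IRS1 not passing. The docetaxel and combination arms also differed in plate size and in the 5 days of prior tazemetostat, and the labels state the serum only for the combination's protocol, so drug and culture conditions cannot be told apart here or against docetaxel 8 h. Over all genes 63.8% passed, 32.1% higher and 31.7% lower. The differences of the 7 ran from 0.19 for ERBB2 (SE 0.05, adjusted p = 0.00323) to 1.12 for IRS2 (SE 0.09, adjusted p = 3.39e-10), with IGF1R at 1.08 (SE 0.08) and INSR at 0.95 (SE 0.07). EPHA2 was -0.23 (SE 0.05, adjusted p = 0.000595). Against docetaxel 8 h 7 of the 9 were higher and 0 lower, IRS1 and EPHA2 not passing, and 66.4% of all genes passed, with 34.3% of all genes higher and 32.1% lower, or 6101 and 5701 genes, which became 7224 and 4452 with library totals. The summed level of the 9 genes was 791 ± 30.5 CPM (SD, n = 3) in DMSO, 623 ± 47.8 at docetaxel 8 h, 671 ± 29.9 at 24 h and 965 ± 51.7 in the combination. Without IRS2 the sums were 699 ± 23.9, 538 ± 36.0, 570 ± 18.8 and 745 ± 26.5 CPM. The combination and DMSO sums without IRS2 overlapped in their libraries, at 717 to 770 and 680 to 726 CPM.

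**Figure D3:**
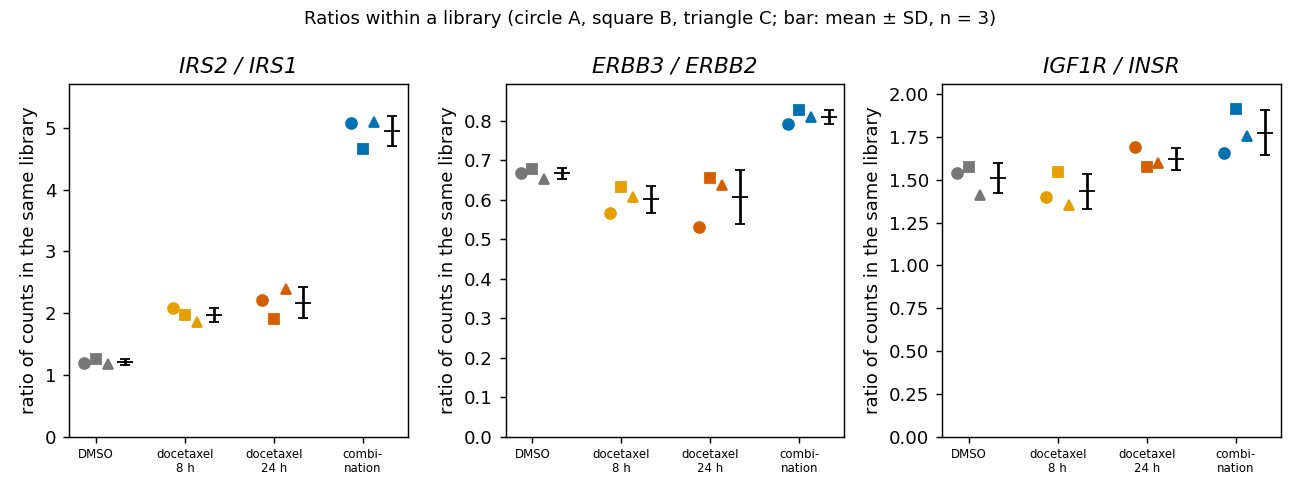
Count ratios within each library (vertical axes, each from 0) for IRS2 to IRS1, ERBB3 to ERBB2 and IGF1R to INSR in the 4 groups, with bars for the mean ± SD of 3. The IRS2 to IRS1 ratio lay between 4.67 and 5.10 in the combination and between 1.17 and 1.26 in DMSO.

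Likeness between patterns was measured as the root-mean-square difference of log2 CPM, each gene centred on its own DMSO mean, over the 12 libraries. Among the 9, INSR and FGFR1 were closest at 0.124, then MET and FGFR1 at 0.138, while IRS1 and IRS2 were farthest apart at 1.16. Among 10595 other protein-coding genes of at least 5 CPM, the nearest to IRS2 were FOXO1, a FOXO transcription factor, at 0.118 and CELF2 at 0.141. FOXO1, itself in the FOXO list below, had log2 fold changes of -0.24 at docetaxel 8 h, 0.08 at 24 h and 1.38 in the combination. The nearest to IRS1 were PRRC2B at 0.0960 and ZNF710 at 0.0982. ERBB2 was nearest to SCNN1A at 0.0380, ERBB3 to SLC35E2B at 0.0638, INSR to SDC3 at 0.0629 and IGF1R to VPS13D at 0.0645. MET was nearest to the kinase gene JAK1 at 0.0429, FGFR1 to FNIP1 at 0.0588 and EPHA2 to ING1 at 0.0559. Genes with small changes have close neighbours by this measure, so the values describe and rank only.

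Several ligands of these receptors were at or near 0 counts. INS, IGF2 and HGF, which encode the ligands of INSR, IGF1R and MET, had 0 counts in DMSO and in the combination, and IGF1 had 0 counts in DMSO and 4 in the combination. A count of 0 over a group allows up to 0.0276 CPM in DMSO and 0.0320 CPM in the combination (3 counts of the group's total, for counting error only). NRG1, a ligand of ERBB3, had 0 counts in DMSO and 13 in the combination. NRG2, another neuregulin, was detected, with 161 counts (1.48 CPM) in DMSO and 194 counts (2.07 CPM) in the combination. Of 28 ligands and IGF-binding proteins listed, 18 were tested. In the combination 6 rose, 5 fell and 7 did not pass, with a median of 0.16. The shares over all genes were 31.4% higher and 31.4% lower, so these counts lay near them. FGF1, an FGFR1 ligand, rose from 0.538 to 4.24 CPM (log2 fold change 2.98, SE 0.20), and FGF2, another, fell from 54.9 to 20.1 CPM (-1.45, SE 0.07). EFNA1, an ephrin that binds EPHA2, rose by 0.65 (SE 0.07) in the combination and by 0.57 (SE 0.07) at docetaxel 24 h. IGFBP5, which binds IGFs, fell by 1.24 at docetaxel 8 h (SE 0.05), and had a log2 fold change of -0.91 at 24 h (SE 0.05) and -0.98 in the combination (SE 0.05). IGFBP6, which binds IGF2, rose by 2.07 in the combination (SE 0.13). IGF2R, which takes up IGF2, fell by 0.53 at 8 h (SE 0.08) and by 0.76 at 24 h (SE 0.08). At docetaxel 8 h 3 of the 18 ligands and binding proteins rose and 5 fell with TMM, against 1 and 7 with library totals, and at 24 h 3 rose and 6 fell. With TMM 22.5% of all genes rose and 24.8% fell at 8 h, and 20.2% rose and 22.7% fell at 24 h.

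Of 47 other receptor tyrosine kinases, 36 were tested. In the combination 17 rose, 10 fell and 9 did not pass, with a median of 0.35. At docetaxel 8 h 2 rose and 17 fell (median -0.30), and at 24 h 2 rose and 19 fell (median -0.26). Among all genes 31.4% rose and 31.4% fell in the combination, 22.5% and 24.8% at 8 h, and 20.2% and 22.7% at 24 h. The 2 higher at 24 h became 0 with DESeq2 or without docetaxel 24 h library A, and 1 without the filter or without any 1 of the other 24 h, DMSO or combination libraries. The 2 higher at 8 h became 1 with library totals, without the filter, and without DMSO library C or any 1 docetaxel 8 h library. EGFR fell by 0.31 at 8 h (SE 0.08) and by 0.53 at 24 h (SE 0.08) and rose by 0.35 in the combination (SE 0.08), from 3830 ± 254 CPM (SD, n = 3) in DMSO to 4895 ± 365 CPM. ERBB4, the remaining family member, fell by 1.42 in the combination (SE 0.09), from 18.9 to 7.04 CPM, the opposite direction to ERBB3 and EGFR. AXL rose from 1.18 to 10.5 CPM (3.14, SE 0.15), the macrophage receptor gene CSF1R from 2.73 to 15.4 CPM (2.50, SE 0.10) and the kinase-dead ephrin receptor gene EPHB6 from 26.9 to 109 CPM (2.02, SE 0.06). EPHB6 also rose at docetaxel 8 h (0.69, SE 0.06). CSF1R carried nearly all of the summed immune markers, which ran from 2.66 to 2.95 CPM in DMSO and from 15.3 to 15.9 CPM in the combination. The summed endothelial markers, mostly KDR, ran from 21.7 to 24.2 CPM in DMSO and from 38.8 to 40.0 CPM in the combination, and the part of other cells was not tested. PTK7, a Wnt pathway co-receptor, fell by 0.43 at docetaxel 8 h (SE 0.05) and by 0.76 at 24 h (SE 0.05), and EPHB2 fell by 0.59 (SE 0.06) and 0.55 (SE 0.06).

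The adaptors and PI3K subunits, 30 of 32 tested, had 11 higher and 11 lower in the combination, 0 higher and 17 lower at docetaxel 8 h, and 0 higher and 10 lower at 24 h. Their medians were 0.04, -0.29 and -0.14. Over all genes 31.4% rose and 31.4% fell in the combination, 22.5% and 24.8% at 8 h, and 20.2% and 22.7% at 24 h. PIK3R3 and PIK3R1, regulatory subunits of PI3K that bind IRS proteins, fell by 1.18 (SE 0.05) and 1.10 (SE 0.06) in the combination. GRB7, an adaptor of ERBB2, rose from 27.8 to 71.2 CPM (1.35, SE 0.08), and SHC2 rose from 0.198 to 6.03 CPM (4.88, SE 0.26) on 22 counts over the DMSO libraries. GAB2, a docking protein, fell by 0.63 at 8 h (SE 0.05) and by 0.50 at 24 h (SE 0.05) and rose by 0.29 in the combination (SE 0.05). SOS1, an exchange factor for RAS, fell by 0.61 at 8 h (SE 0.06), 0.27 at 24 h (SE 0.06) and 0.53 in the combination (SE 0.06).

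Negative regulators of receptor and PI3K signalling, 30 of 31 tested, had 2 higher and 21 lower at docetaxel 8 h, 8 higher and 8 lower at 24 h, and 9 higher and 12 lower in the combination. Their medians were -0.34, -0.04 and -0.06. As background, 22.5% of the genes tested rose after 8 h of docetaxel, while 24.8% fell. The background shares after 24 h of docetaxel were 20.2% higher, 22.7% lower. For the combination the share was 31.4% in each direction. Scaling by library totals changed the regulator counts after 8 h of docetaxel to 1 higher, 26 lower. PIK3IP1, an inhibitor of PI3K, rose from 7.56 to 70.7 CPM in the combination (3.22, SE 0.07), INPP4B, a phosphoinositide phosphatase gene, rose by 1.36 (SE 0.08) and SOCS3 by 1.12 (SE 0.08). LRIG1, which promotes the degradation of ERBB receptors and MET, fell by 0.94 in the combination (SE 0.06), by 0.82 at docetaxel 8 h (SE 0.06) and by 0.74 at 24 h (SE 0.06). GRB10, an adaptor that restrains INSR and IGF1R, fell by 0.76 at 8 h (SE 0.05) and rose by 0.25 in the combination (SE 0.05). At 24 h GRB10 had a log2 fold change of -0.08 (SE 0.05, adjusted p = 0.199). PIK3IP1 fell by 1.03 at docetaxel 8 h (SE 0.09). TRIB3, an AKT-binding pseudokinase gene, fell by 0.80 at 8 h (SE 0.05) and rose in the combination (0.13, SE 0.05, adjusted p = 0.0372). At 24 h TRIB3 did not pass (-0.12, SE 0.05, adjusted p = 0.0712). The 24 h value passed with library totals (adjusted p = 0.0171) and with only the 2 groups compared (adjusted p = 0.0404). It also passed without docetaxel 8 h library A (adjusted p = 0.0484) or combination library A (adjusted p = 0.0470). The TRIB3 call in the combination was lost with library totals (0.09, adjusted p = 0.0976), without the filter (0.09, adjusted p = 0.226), and when DMSO library A or C, docetaxel 8 h library C, or combination library A or C was left out, with values from 0.09 to 0.12.

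FOXO factors and genes they are known to activate, 16 of 18 tested, had 9 higher, 6 lower and 1 not passing in the combination, with a median of 0.42. At docetaxel 8 h 1 rose and 10 fell (median -0.45), and at 24 h 3 rose and 4 fell (median 0.04). All genes tested had 31.4% higher and 31.4% lower in the combination, 22.5% and 24.8% at 8 h, and 20.2% and 22.7% at 24 h. The 6 lower in the combination became 3 without combination library A. The 1 higher at 8 h became 0 with library totals, without the filter, and without combination library C, DMSO library B or C, or any 1 docetaxel 8 h library. The 4 lower at 24 h became 2 without DMSO library A or B. PDK4, an inhibitor of pyruvate entry to the citric acid cycle, rose from 0.194 to 8.45 CPM in the combination (5.42, SE 0.22) on 21 counts over the DMSO libraries. CCNG2, an atypical cyclin gene, rose by 1.11 (SE 0.05), KLHL24 by 0.96 (SE 0.06) and CITED2, a transcriptional co-regulator gene, by 0.80 (SE 0.05). At docetaxel 8 h KLHL24 fell by 0.70 (SE 0.06) and CITED2 by 0.46 (SE 0.05). In the combination FOXO3 fell by 0.17 (SE 0.06), a call lost without DMSO library B (-0.13, adjusted p = 0.0829) or combination library A (-0.14, with an adjusted p just above the threshold), and BCL2L11, a pro-apoptotic gene also activated by FOXO3, fell by 0.18 (SE 0.06). FOXO3 fell by 0.73 at docetaxel 8 h (SE 0.06) and BCL2L11 by 0.49 (SE 0.06). These lists are described by counts and medians only, and all 3 treatments share the same DMSO libraries.

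**Figure D4:**
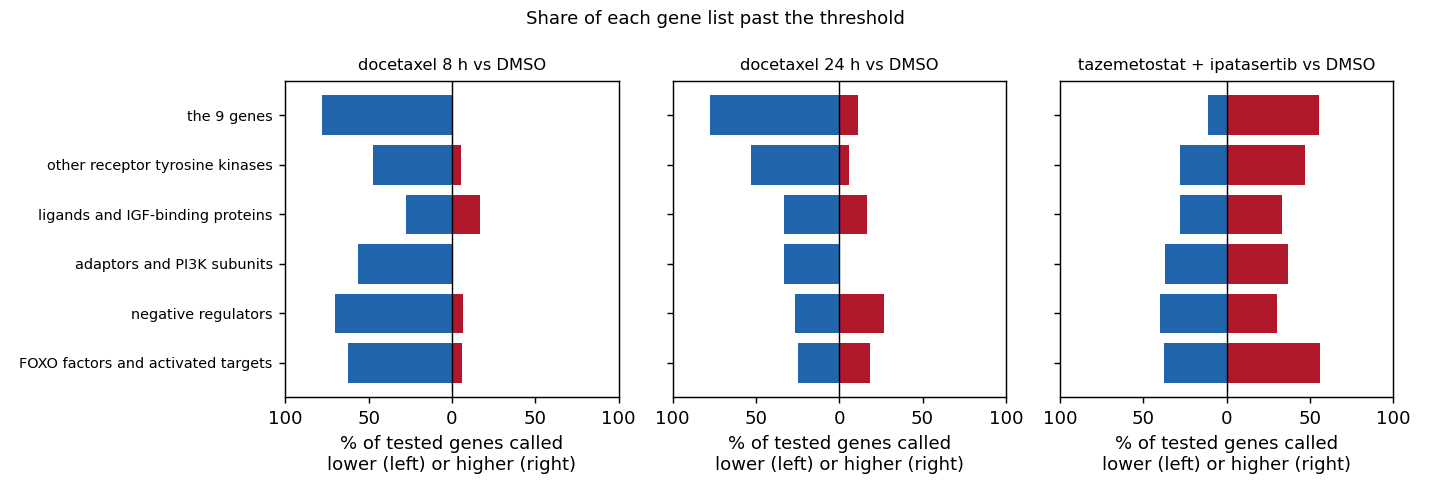
Percentage of tested genes called higher (to the right) or lower (to the left) in each list, in the 3 comparisons with DMSO. A call is an adjusted p under 0.05. The other receptor tyrosine kinases had 17 of 36 higher in the combination, where 31.4% of all genes were higher, and 17 and 19 of 36 lower at docetaxel 8 h and 24 h, where 24.8% and 22.7% of all genes were lower.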

How the data were processed

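RNA-seq gene counts of 12 libraries from MDA-MB-468 cells were used as deposited, as whole-number counts per gene symbol. Per the submitters' processing notes, the authors used fastp, HISAT2 2.0.5 and DESeq2 with build hg38. No label names the counting program or its strand setting. A deposited table of counts divided by size factors was not used. Groups came from the sample labels. The members and gene lists were chosen with earlier results of these data known.

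Entries were matched by symbol to GENCODE release 29 (58708 of 58735), which gave summed exon lengths, and 1745 entries with a repeated symbol were kept apart. Counts were tested with edgeR 4.0.16 (R 4.3.3): filterByExpr with a minimum count of 10, TMM (factors 0.917 to 1.05), one fit over 12 libraries with 8 residual degrees of freedom, 6 contrasts, two-sided, Benjamini-Hochberg over 17780 genes, threshold 0.05. Log2 CPM for likeness used a prior count of 2. Other genes are named by a rule: per list, up to 4 with the lowest adjusted p in the combination and up to 2 more under docetaxel, plus EGFR and ERBB4. One further gene that the rule names is not reported here. For each member the nearest pattern is given, and the second nearest for IRS1 and IRS2. The biological coefficient of variation was 5.59%. The fit was tested on simulated data. Over all genes tested, same-lettered libraries did not in general deviate together: their correlations had a median of 0.00219 and ranged from -0.134 to 0.143 over 18 pairs. No pair of libraries in a group agreed within sampling noise. Alternatives were DESeq2 size factors, library totals, DESeq2 1.42.0, no filter, only the 2 groups compared, a replicate block and leaving out each library.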

Additional observations from a re-analysis of the deposited data

Results flagged for a closer look

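For 5 of the 9 genes the docetaxel response differed between 8 h and 24 h by the direct comparison of the 2 times (edgeR, 3 libraries each), in which 34.9% of all genes passed. The response at 24 h minus that at 8 h was 0.20 on the log2 scale for ERBB2 (SE 0.05, adjusted p = 0.00473) and 0.21 for ERBB3 (SE 0.05, adjusted p = 0.00322), so both were less far below DMSO at 24 h. It was 0.17 for EPHA2 (SE 0.05, adjusted p = 0.0136), with the 24 h libraries the highest of the 4 groups, and this call was lost without docetaxel 8 h library C (0.16, adjusted p = 0.0528) or without 24 h library C (0.15, adjusted p = 0.0565). It was 0.25 for IRS2 (SE 0.09, adjusted p = 0.0375), a call lost with DESeq2 (0.25, adjusted p = 0.148) and without DMSO library C (0.24, adjusted p = 0.0556), docetaxel 8 h library A (0.15, adjusted p = 0.210), 8 h library C (0.27, adjusted p = 0.0627) or 24 h library A (0.15, adjusted p = 0.248). It was -0.19 for INSR (SE 0.07, adjusted p = 0.0374), a call lost with library totals (-0.06, adjusted p = 0.564), without the filter (-0.19, adjusted p = 0.0571), with only the 2 groups compared (-0.18, adjusted p = 0.0863), and without docetaxel 8 h library B (-0.16, adjusted p = 0.114), 8 h library C (-0.14, adjusted p = 0.182), 24 h library B (-0.17, adjusted p = 0.107) or 24 h library C (-0.20, adjusted p = 0.0649).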

How the results depend on the processing

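Over 54 member results and 18 alternatives, 972 checks gave 928 with the same direction and call, 15 that lost the threshold, 16 that newly passed it and 13 with the opposite sign, of which 0 were past the threshold with either sign. At docetaxel 8 h, members higher went from 0 to 1 (EPHA2) with DESeq2 size factors, with DESeq2 and with only the 2 groups compared, and ranged from 0 to 1 when a library was left out. In the combination against DMSO, members lower went from 1 to 2 (ERBB2 added) with library totals, without the filter and with only the 2 groups compared, and ranged from 1 to 2 when a library was left out. Between the docetaxel times, members higher ranged from 2 to 4 and members lower from 0 to 1 when a library was left out, and members lower (INSR) was 0 with library totals, without the filter and with only the 2 groups compared. With library totals, genes higher and lower at docetaxel 8 h went from 3994 and 4415 to 2288 and 6782, and between the docetaxel times from 2947 and 3261 to 5387 and 1659. The replicate block changed 1 member call, MET in the combination (0.13, adjusted p = 0.0261). Over all genes tested, the deviations of same-lettered libraries had a median correlation of 0.00219. Among the 9 genes, library A was the lowest of its group for 5 in DMSO, 8 at docetaxel 8 h and 6 in the combination, but for 1 at docetaxel 24 h. Pairing of the letters within the 9 genes was not tested further. Depth did not limit the 9 genes, which had 614 to 9482 counts per library, whereas ligands with a few counts could not be tested. Log2 fold changes that took the opposite sign did so without passing. With library totals these were EPHA2 at docetaxel 8 h (-0.036) and in the combination against docetaxel 8 h (0.061), IGF1R (0.12) and FGFR1 (0.037) between the docetaxel times, EFNA1 (-0.11) and GRB7 (-0.066) at 8 h, BCL2L11 (-0.020) and FGF1 (-0.00081) at 24 h, and ERBB4 between the times (0.12). BCL2L11 at 24 h was also -0.0018 with DESeq2 size factors and -0.012 without the filter. When a library was left out, values ran at docetaxel 8 h from -0.20 to 0.0022 for IRS2, from -0.027 to 0.11 for EFNA1 and from -0.18 to 0.075 for FGF1. At 24 h they ran from -0.027 to 0.042 for BCL2L11, from -0.041 to 0.15 for FGF1 and from -0.045 to 0.030 for PIK3IP1. Between the docetaxel times they ran from -0.10 to 0.075 for IGF1R, -0.028 to 0.22 for IRS1, -0.047 to 0.10 for MET, -0.11 to 0.048 for ERBB4, -0.051 to 0.21 for FGF1, -0.053 to 0.17 for GRB7, -0.046 to 0.14 for IGFBP6, -0.0048 to 0.15 for LRIG1 and -0.19 to 0.90 for SHC2. For IRS1 in the combination they ran from -0.18 to 0.041 against docetaxel 24 h and from -0.10 to 0.15 against 8 h. The cause was not tested.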
